A study of Mus musculus with 18 samples.

Results

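Transcripts of the aminoacyl-tRNA synthetases and their scaffold proteins were followed through RNA-seq of mouse bone marrow-derived macrophages (BMDM) in which choline metabolism was inhibited. The group comprised 39 genes, chosen by symbol with earlier results of these data known. Of these, 20 were for cytosolic enzymes or their subunits, 3 for scaffold proteins of the multisynthetase complex and 16 for mitochondrial enzymes. All 39 were found among the 55385 genes of the deposited count table, and all 39 passed the filter (10 counts or more in 2 or more of 18 libraries) that left 14979 genes for testing. *Gars* and *Kars* were counted with the cytosolic genes, although each gene also gives the mitochondrial form of its enzyme.

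BMDM came from 3 individual female C57BL/6J mice, aged 12 weeks, and were grown in DMEM with L-929 supernatant until day 7. For 24 h they received vehicle (Veh, 0.1% DMSO), 250 µM hemicholinium-3 (HC3), which blocks choline uptake, or 5 µM RSM-932a (RSM), which inhibits choline kinase, the enzyme that phosphorylates choline on its way to phosphatidylcholine. For another 24 h they then stayed naïve (M[0]) or received interleukin-4 at 20 ng/mL (M[IL-4]), which gave 6 groups of 3 libraries with 17457796 to 19522255 counts each. No group carried a deletion or a transgene. Since RNA of whole cultures was sequenced, fewer cells making a transcript and less of it per cell cannot be told apart.

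Each aminoacyl-tRNA synthetase joins 1 amino acid to its tRNAs and so supplies the ribosome with building blocks. The cytosolic enzymes serve nuclear-encoded mRNAs, and several of them sit in a multisynthetase complex held together by the scaffold proteins Aimp1, Aimp2 and Eef1e1. Most mitochondrial enzymes are encoded by separate nuclear genes and serve the few proteins translated inside the organelle. Many cytosolic synthetase genes are known targets of ATF4, the transcription factor of the integrated stress response, which together with C/EBP proteins binds a composite DNA element.

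The core of that element, TGATGNAA, was searched on both strands of RefSeq promoter windows (GRCm38.p6, 250 bases before to 50 after the transcription start) to show where cytosolic synthetase promoters hold its letters. Windows were found for 30 of the 39 genes (not for *Cars*, *Hars*, *Lars*, *Nars*, *Rars*, *Vars*, *Wars*, *Hars2* and *Pars2*). The letters were present in 5 of 13 cytosolic genes with a window (38.5%), in 0 of 3 scaffold genes and in 0 of 14 mitochondrial genes, against 1219 of 27025 genes in the whole table (4.51%). The cytosolic windows without a match were those of *Dars*, *Eprs*, *Farsa*, *Farsb*, *Kars*, *Mars*, *Qars* and *Sars*. Of the genes raised most below, *Aars* held a match and *Sars* and *Eprs* held none. Whether a match goes with a change in level was not tested. A site of *Aars* is at chr8:111033841-111033868, that of *Gars* is at chr6:55037961-55037988 and that of *Iars* at chr13:49682127-49682154. The site of *Tars*, a gene on the reverse strand, is at chr15:11399656-11399683 and that of *Yars* at chr4:129189896-129189923. Each is printed 5′ to 3′ along the gene, with the motif or its reverse complement (TTNCATCA) in capitals.
Aars, +10 to +17 from the start: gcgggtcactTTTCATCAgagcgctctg
Gars, -30 to -23: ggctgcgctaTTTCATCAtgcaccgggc
Iars, +8 to +15: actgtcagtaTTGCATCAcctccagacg
Tars, -15 to -8: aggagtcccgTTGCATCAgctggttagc
Yars, +4 to +11: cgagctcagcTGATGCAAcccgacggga
A match is a description of these letters and not of binding.

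Macrophage identity was checked on 7 markers (*Adgre1*, *Csf1r*, *Cd68*, *Lyz2*, *Mertk*, *Fcgr1* and *Itgam*). Their sums in CPM (counts scaled to the library size after TMM adjustment) were 19650 to 20765 in Veh M[0]. With HC3 they were 8460 to 9556 and with RSM 15244 to 16775. In M[IL-4] the sums were 11663 to 12027, 7403 to 8593 and 10452 to 12849. These sums are weighted to the highest markers, above all *Lyz2* (2481 to 12586 CPM over all libraries). They say little of *Mertk*, *Fcgr1* and *Itgam*, which reached at most 132, 199 and 261 CPM. Summed levels of 5 stromal markers were 512 to 865 CPM in Veh M[0], 1220 to 1679 with HC3 and 1022 to 1465 with RSM, and 275 to 648, 549.5 to 1039 and 532 to 1057 in M[IL-4]. Neutrophil, B cell, T cell and dendritic cell markers summed to at most 2.79 CPM in any library. Transcripts of the mitochondrial chromosome took 1.68 to 2.03% of counts in Veh M[0], 2.51 to 3.45% with HC3 and 0.709 to 0.814% with RSM. These levels move with the inhibitors, and their part in the synthetase results was not tested.

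To see whether inhibiting choline metabolism changed the synthetase transcripts, each inhibitor was compared with Veh within M[0] and within M[IL-4]. Cytosolic synthetase transcripts rose broadly with both inhibitors, up to 3.96-fold for the alanine enzyme (HC3 in M[0]). The mitochondrial class moved less. Its summed transcripts overlapped with Veh, its mean log2 level was slightly above Veh, and single genes rose more often than they fell. In the 3 libraries of Veh M[0] the 20 cytosolic genes summed to 1797, 1705 and 1759 CPM. The sums were 3660.3, 3586 and 3510.1 with HC3 and 3604, 3433 and 3409 with RSM, so that both inhibitor groups lay far above Veh. In M[IL-4] they were 2399.7, 2334 and 2374 with Veh, 3849, 3912 and 3923 with HC3 and 3714, 3565 and 3669 with RSM. The 16 mitochondrial genes summed to 494 ± 15.3, 503 ± 17.5 and 486 ± 22.9 CPM in M[0] and to 544 ± 30.2, 541 ± 25.04 and 539 ± 8.37 CPM in M[IL-4] (mean ± SD, n = 3), and within each state these ranges overlapped. The ratio of the cytosolic to the mitochondrial sum was therefore 3.56 ± 0.170 in Veh M[0] and 4.36 ± 0.273 in Veh M[IL-4], but 6.503 to 7.55 in all 12 inhibitor libraries. The mitochondrial sum is weighted to *Lars2*, at 232 CPM in Veh M[0]. By the mean log2 CPM of the 16 genes, every inhibitor library lay above every Veh library. In M[0] these means were 4.065 to 4.177 with Veh, 4.291 to 4.331 with HC3 and 4.179 to 4.271 with RSM. In M[IL-4] they were 4.215 to 4.242, 4.350 to 4.359 and 4.308 to 4.357.

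**Figure D1:**
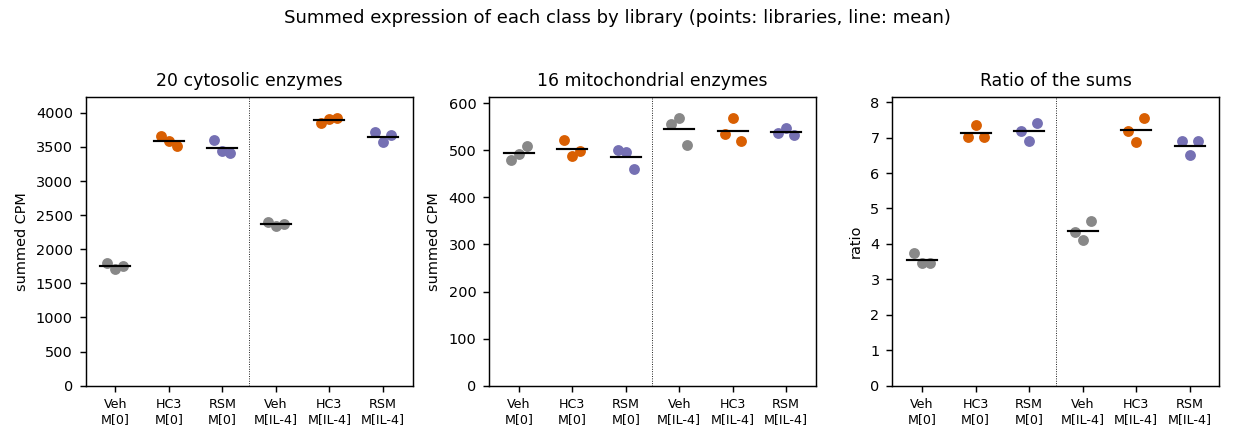
Summed expression (CPM scaled by TMM, linear axis from 0) of the 20 cytosolic genes, the 16 mitochondrial genes and their ratio, with 1 point per library and a line at the mean of 3 libraries. Cytosolic sums lie at 1705 to 1797 in Veh M[0] and at 3409 to 3660 with either inhibitor, while mitochondrial sums, in which *Lars2* weighs most, overlap between all M[0] groups.

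Levels were compared between genes only per kb of exon. The length used joins all annotated exons of a gene and can exceed that of the transcripts present, so the order of genes depends on the annotation. Among cytosolic genes, *Nars*, the asparagine enzyme, was the most abundant per kb in every group, at 57.1 CPM per kb in Veh M[0] and 105 with HC3. *Yars*, the tyrosine enzyme, was the least abundant in both Veh groups (6.36 CPM per kb in M[0]), whereas *Farsa*, the alpha subunit of the phenylalanine enzyme, was the least abundant in all 4 inhibitor groups (11.2 CPM per kb with HC3 in M[0]). The median over cytosolic genes was 16.2 CPM per kb in Veh M[0], against 6.05 for scaffold and 2.41 for mitochondrial genes. With HC3 in M[0] these medians were 27.2, 8.12 and 2.72. *Lars2*, the mitochondrial leucine enzyme, stood apart within its class at 20.9 CPM per kb in Veh M[0].

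A gene was called changed when its false discovery rate (FDR, Benjamini-Hochberg over 14979 genes, edgeR quasi-likelihood test) was under 0.05, and 2-fold changed when its log2 fold change was also at least 1 or at most -1, the thresholds of the study's methods. In M[0], HC3 raised 16 of 20 cytosolic genes and lowered 0, where 22.6% of all tested genes rose and 21.5% fell. RSM raised 17 of 20 and lowered 0, against 20.5% and 20.7% of all genes. In M[IL-4], HC3 raised 16 and lowered 1 (all genes 18.9% and 19.9%), and RSM raised 15 and lowered 1 (all genes 20.1% and 18.5%). The 2-fold rule was met upward by 8 cytosolic genes with HC3 and 8 with RSM in M[0]; in M[IL-4] the numbers were 3 and 3 (*Aars*, *Eprs* and *Sars* with each inhibitor). The share of all genes that met it upward was 5.93%, 5.05%, 4.72% and 5.05% in the same order, and downward 6.11%, 6.51%, 5.53% and 6%; no member of any class met it downward. Median log2 fold changes of the cytosolic genes were 0.87, 0.90, 0.53 and 0.45, beside 0.0227, 0.0053, 0.00626 and 0.0186 over all genes tested. Both inhibitors were compared with the same Veh libraries, so their values are set side by side and are not independent of each other. P-values set a difference against the spread between libraries of the same group, estimated in 1 model over all 18 libraries. That model ignores the pairing of same-numbered libraries, and values with a replicate block are given as alternatives.

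**Figure D2:**
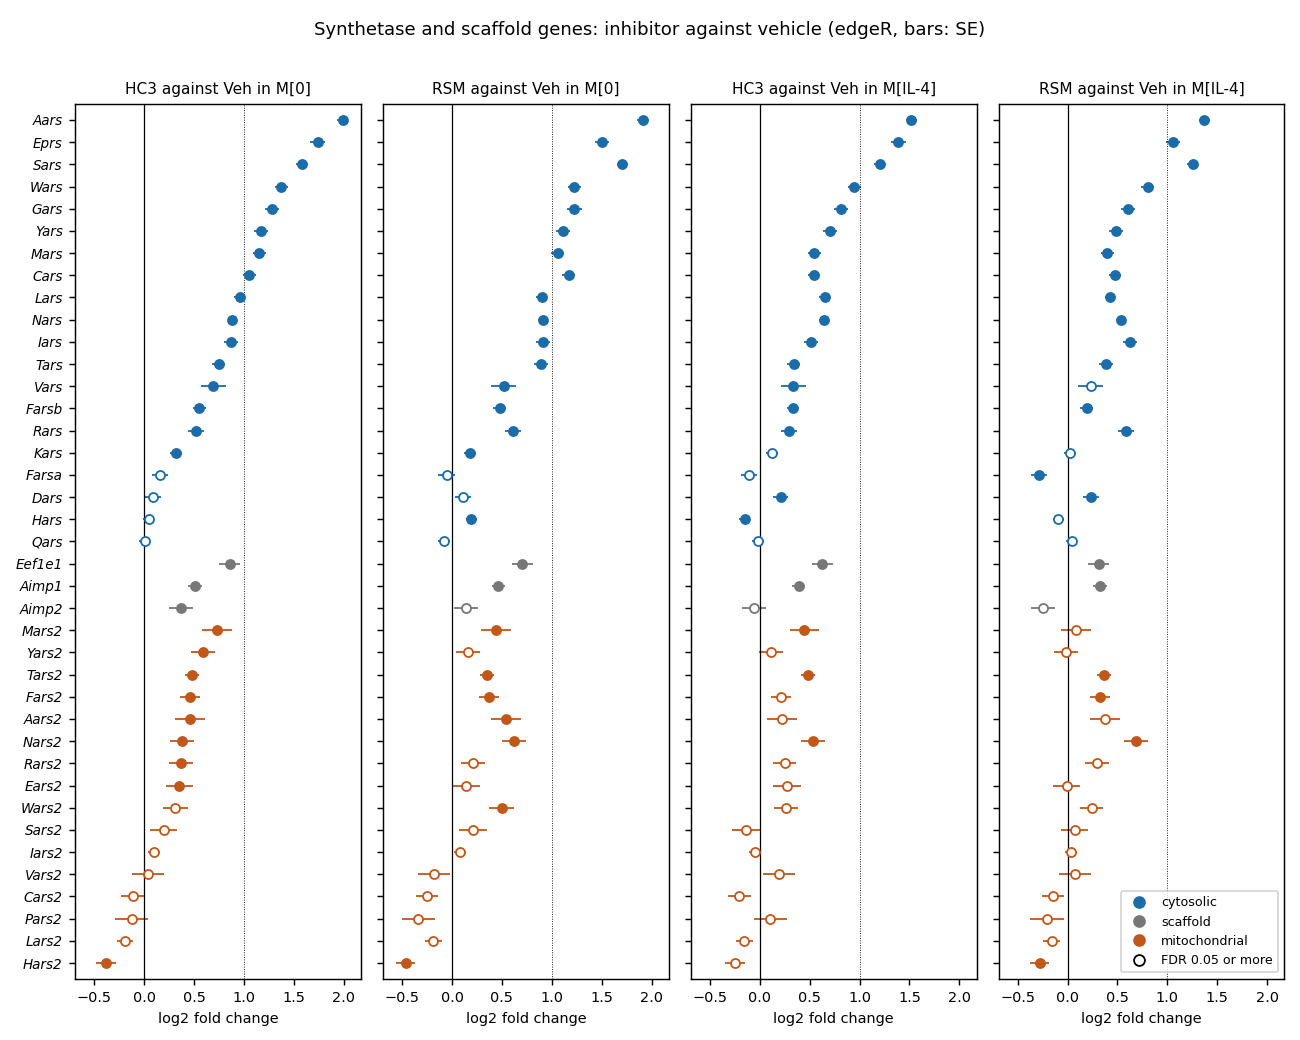
Log2 fold change (points) with its SE (bars) for all 39 genes in the 4 comparisons of an inhibitor with Veh, coloured by class, with filled points at an FDR under 0.05 (edgeR) and a dotted line at 2-fold. Points of the cytosolic class reach 1.99 (*Aars*, HC3 in M[0]), and the mitochondrial class stays between -0.46 and 0.73.

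The alanine enzyme gene *Aars* (chromosome 8 from 111033144 to 111057664 of GRCm38, forward strand) changed most among all members in each of these comparisons. It had 126, 121 and 130.1 CPM in the Veh M[0] libraries, 490.3, 500.4 and 502 with HC3 and 480.4, 466 and 474 with RSM. In M[IL-4] it had 186, 165 and 181 CPM with Veh, 511, 491 and 522 with HC3 and 477, 446 and 453 with RSM. Every inhibitor library lay above every Veh library, by more than 2-fold in both polarization states. The log2 fold change was 1.99 (SE 0.0562, FDR = 9.62e-15) for HC3 and 1.91 (SE 0.0561, FDR = 3.09e-14) for RSM in M[0]. In M[IL-4] it was 1.52 (SE 0.0552, FDR = 2.39e-13) for HC3 and 1.37 (SE 0.0551, FDR = 1.44e-12) for RSM. Of the exonic length of *Aars*, 14.3% is shared with *Exosc6* on the same strand.

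*Sars*, which charges serine and also selenocysteine tRNA, lies on chromosome 3 from 108424865 to 108445209. Its Veh M[0] libraries had 95.6, 93.7 and 90.7 CPM, those with HC3 had 281, 291 and 266 and those with RSM 311, 315 and 288. In M[IL-4] the values were 119, 123 and 122 with Veh, 286, 290.2 and 261 with HC3 and 288, 297 and 284 with RSM. Again no inhibitor library came near the Veh range. On the log2 scale the differences were 1.58 (SE 0.0577, FDR = 1.68e-13) and 1.71 (SE 0.0578, FDR = 9.45e-14) in M[0] for HC3 and RSM, and 1.201 (SE 0.0570) and 1.26 (SE 0.0570) in M[IL-4].

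*Eprs* encodes the bifunctional enzyme for glutamate and proline, a member of the multisynthetase complex (chromosome 1 from 185363044 to 185428360). It had 167, 134 and 146 CPM with Veh, 522, 482 and 484 with HC3 and 445, 421 and 398 with RSM in M[0]. In M[IL-4] these were 213, 217 and 209 CPM with Veh, 519.7, 588 and 567 with HC3 and 436, 438 and 452 with RSM. HC3 libraries were the highest in both states, RSM libraries lay in between and Veh libraries were the lowest, without overlap. The log2 differences from Veh were 1.74 (SE 0.0735, FDR = 1.26e-12) and 1.502 (SE 0.0731, FDR = 1.02e-11) in M[0], and 1.39 (SE 0.0725) and 1.05 (SE 0.0721) in M[IL-4]; 4.4% of its transcript has a near-identical copy in *Gm48610*.

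*Gars*, the glycine enzyme gene that serves both compartments (chromosome 6 from 55038007 to 55079500), had 102, 87.2 and 102 CPM with Veh, 235, 243 and 229 with HC3 and 245, 210.5 and 225 with RSM in M[0]. Its M[IL-4] libraries had 139, 129.8 and 134 CPM with Veh, 236, 233 and 237 with HC3 and 218, 189 and 204 with RSM. The inhibitor libraries were above Veh throughout, at log2 fold changes of 1.28 (SE 0.0713) and 1.23 (SE 0.0712) in M[0], against of 0.81 (SE 0.0703) and 0.60 (SE 0.0702) in M[IL-4]. *Kars*, the lysine enzyme gene that also serves both compartments, moved much less. It had 73.4, 69.3 and 73.1 CPM with Veh, 95.8, 84.4 and 88.4 with HC3 and 83.2, 77.2 and 83.4 with RSM in M[0]. HC3 raised *Kars* by 0.32 (SE 0.0600, FDR = 0.000293) and RSM by 0.18 (SE 0.0601, FDR = 0.0255), a call that was lost without any 1 of the replicates (FDR = 0.0837, 0.0697 and 0.221). In M[IL-4] *Kars* had 92.6, 90.3 and 95.1 CPM with Veh, 103, 99.05 and 101 with HC3 and 99.02, 88.5 and 94.99 with RSM, and neither difference passed (0.12, FDR = 0.111, and 0.0322 with a replicate block within each polarization; 0.02, FDR = 0.797).

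**Figure D3:**
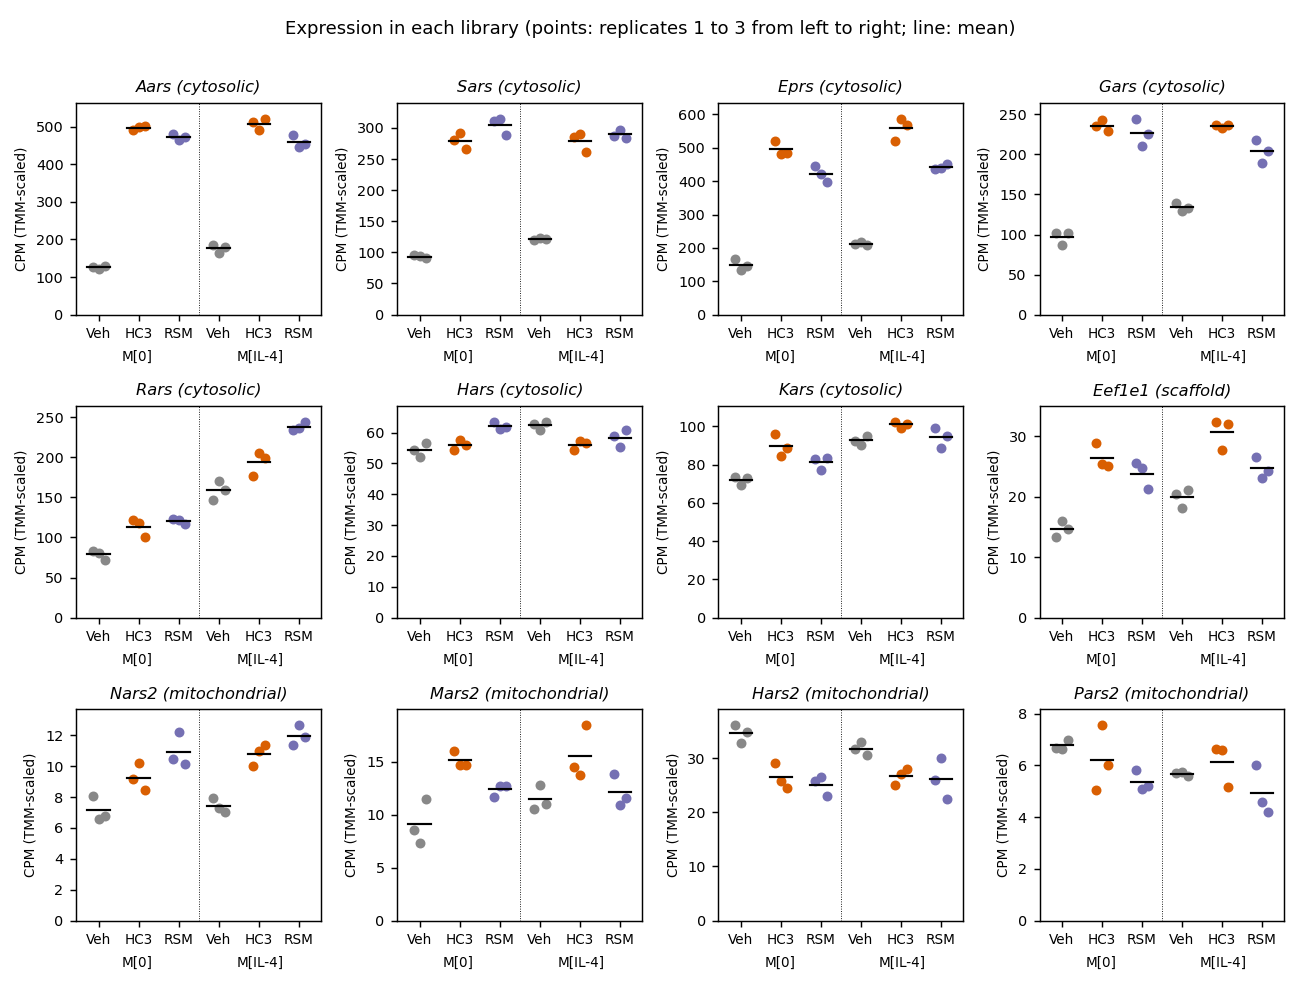
Expression (CPM scaled by TMM, linear axes from 0) of 12 members in each of 18 libraries, with points in the order of replicates 1 to 3 and a line at the group mean. *Aars*, *Sars*, *Eprs* and *Gars* step up from Veh to both inhibitors in M[0] and M[IL-4], *Rars* also steps up with IL-4, and *Hars2* lies lower with the inhibitors.

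A further 4 cytosolic genes met the 2-fold rule in M[0] with both inhibitors. *Wars*, the tryptophan enzyme, rose from 56.4 ± 4.48 CPM to 146 ± 2.25 (HC3) and 132 ± 5.61 (RSM) (log2 fold changes 1.37 and 1.23). *Yars*, whose product also has signalling activity outside its charging role, had 40.4, 35.2 and 37.9 CPM with Veh, 86.7, 83.9 and 84.4 with HC3 and 84.1, 82.7 and 77.7 with RSM in M[0]. On the log2 scale it differed by 1.17 and 1.11 in M[0], against 0.70 and 0.48 in M[IL-4]. *Mars*, the methionine enzyme that supplies the initiator tRNA as well, had 53.1, 47.05 and 53.3 CPM with Veh, 112, 113 and 115 with HC3 and 109.8, 99.99 and 110.2 with RSM in M[0] (1.15 and 1.06). *Cars*, for cysteine, had 47.7, 43.5 and 47.3 CPM with Veh, 94.9, 96.6 and 95.6 with HC3 and 107, 105 and 99.6 with RSM (1.05 and 1.17). Without replicate 2 the value of *Cars* with HC3 was 0.988, under the 2-fold rule. None of the inhibitor libraries of these genes overlapped with Veh. Of the exonic length of *Mars*, 1.99% overlaps *Ddit3* on the opposite strand, and 4.18% of the *Yars* transcript has a near-identical copy in *Tpbpa*.

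The enzymes for leucine, asparagine, isoleucine, threonine, valine and arginine rose by less than 2-fold. *Lars* had 70.3, 71.4 and 73.7 CPM with Veh, 146, 138 and 135 with HC3 and 141, 129 and 131 with RSM in M[0] (log2 fold changes 0.96 and 0.90). *Iars* had 111, 91.6 and 94.1 CPM with Veh, 193, 172 and 176 with HC3 and 196, 182 and 181 with RSM (0.87 and 0.91). In M[IL-4], *Iars* had 144, 144 and 145 CPM with Veh, 196, 207 and 216 with HC3 and 228, 214 and 226 with RSM (0.51 and 0.62). All libraries of *Lars* and *Iars* with an inhibitor were above those with Veh. *Nars* rose from 249 ± 1.89 CPM to 459 ± 14.3 (HC3) and 468 ± 12.4 (RSM) in M[0], and *Tars* from 63.5 ± 3.20 to 107 ± 4.21 and 118 ± 9.16. *Vars* changed by 0.69 and 0.52 in M[0] and by 0.34 with HC3 in M[IL-4], where libraries overlapped and the call was lost without replicate 3 (FDR = 0.246). For RSM in M[IL-4], *Vars* did not pass (0.23, FDR = 0.153), but passed with a replicate block within each polarization (FDR = 0.000453).

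A few cytosolic enzymes changed little or in the other direction. *Qars*, the glutamine enzyme, and *Dars*, the aspartate enzyme, are both part of the multisynthetase complex. *Qars* had log2 fold changes of 0.00, -0.08, -0.02 and 0.04, listed for M[0] (HC3, RSM) before M[IL-4] (HC3, RSM), and its FDR was at least 0.271. *Dars* did not pass in M[0] (0.09 and 0.11) and rose by 0.21 and 0.23 in M[IL-4], calls that were lost without replicate 2 (FDR = 0.119 and 0.0705) and without replicate 3 (FDR = 0.159 and 0.169). *Hars*, for histidine, had 54.5, 52.1 and 56.6 CPM with Veh, 54.4, 57.6 and 56.1 with HC3 and 63.6, 61.1 and 61.9 with RSM in M[0]. Its M[IL-4] libraries had 62.7, 60.7 and 63.6 CPM with Veh, 54.5, 57.3 and 56.6 with HC3 and 59.04, 55.2 and 60.98 with RSM. *Hars* thus rose with RSM in M[0] (0.19 (SE 0.0559, FDR = 0.0095)) and fell with HC3 in M[IL-4] (-0.15 (SE 0.0559, FDR = 0.0392)). Without any 1 of the replicates both calls were lost (FDR of 0.0673 to 0.106 in M[0] and 0.0736 to 0.25 in M[IL-4]). Of its exonic length, 7.97% overlaps *Hars2* on the opposite strand.

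The 2 subunits of the phenylalanine enzyme differed in their values. *Farsb*, the beta subunit, rose in all 4 comparisons, by 0.55 and 0.48 in M[0], then by 0.33 and 0.19 in M[IL-4], the last of which was lost without any 1 of the replicates (FDR = 0.0662 to 0.139). *Farsa*, the alpha subunit, had 40.03, 48.5 and 47.97 CPM with Veh, 48.8, 52.1 and 51.3 with HC3 and 41.6, 44.1 and 45.6 with RSM in M[0]. Its M[IL-4] values were 66.1, 57.1 and 57.8 with Veh, 59.3, 51.8 and 56.6 with HC3 and 49.3, 46.5 and 52.8 with RSM. Every RSM library was below every Veh library in M[IL-4], and *Farsa* fell there by 0.28 on the log2 scale (SE 0.0822, FDR = 0.00993), or FDR = 0.0638 without replicate 1. The other 3 comparisons of *Farsa* with Veh did not pass (0.16, -0.05 and -0.11), except for HC3 in M[0] with a replicate block within each polarization (FDR = 0.0300). Whether the subunits changed differently was not tested.

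By structural family, with the bifunctional *Eprs* left out, the 9 class I cytosolic enzymes had medians of 0.96, 0.91, 0.54 and 0.48, with 8, 8, 8 and 7 raised, in the order of HC3 and RSM in M[0] and then in M[IL-4]. The 10 class II genes, among them both *Aars* and *Hars*, had medians of 0.65, 0.68, 0.34 and 0.31, with 7, 8, 7 and 7 raised. Of the 8 cytosolic enzymes of the multisynthetase complex, 6 rose in each comparison, at medians of 0.69, 0.75, 0.40 and 0.41. Within the complex the values ran from 0.00 for *Qars* to 1.74 for *Eprs* with HC3 in M[0].

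Of the 3 scaffold genes, *Eef1e1* and *Aimp1* rose in each comparison without reaching 2-fold, and *Aimp2* rose in 1. *Eef1e1*, which encodes the smallest scaffold protein (AIMP3), had 13.4, 15.9 and 14.6 CPM with Veh, 28.9, 25.4 and 25.1 with HC3 and 25.6, 24.7 and 21.2 with RSM in M[0]. In M[IL-4] it had 20.4, 18.1 and 21.2 CPM with Veh, 32.4, 27.7 and 32.1 with HC3 and 26.6, 23.04 and 24.3 with RSM. No inhibitor library overlapped with Veh, and the differences on the log2 scale were 0.85 (SE 0.104, FDR = 2e-06) and 0.70 (SE 0.104, FDR = 2.28e-05) in M[0]. With IL-4 the value for HC3 was 0.63 (SE 0.102, FDR = 6.47e-05) and for RSM 0.31 (SE 0.102, FDR = 0.0212), the latter lost without any 1 of the replicates (FDR = 0.0725 to 0.114). *Aimp1*, the precursor of a secreted cytokine, had 34.9, 34.4 and 32.3 CPM with Veh, 50.6, 47.7 and 45.8 with HC3 and 50.04, 46.1 and 44.04 with RSM in M[0], and 38.3, 42.8 and 43.8 with Veh, 54.3, 55.9 and 53.4 with HC3 and 53.9, 50.1 and 52.3 with RSM in M[IL-4]. It rose by 0.50, 0.47, 0.39 and 0.32, again without overlap. *Aimp2* was low (10.3 ± 1.79 CPM with Veh in M[0]) and among the comparisons with Veh rose only with HC3 in M[0] (0.36 (SE 0.121, FDR = 0.0203)), a call lost without replicate 2 (FDR = 0.194) or replicate 3 (FDR = 0.158). The other values of *Aimp2* were 0.14 with RSM in M[0] and -0.06 and -0.24 with HC3 and RSM in M[IL-4]. Every RSM library (10.2, 10.9 and 12.3 CPM) was below every Veh library (12.9, 12.4 and 14.4 CPM) in M[IL-4], without passing the test (FDR = 0.123). Of the exonic length of *Aimp2*, 29.4% overlaps *Eif2ak1* on the opposite strand.

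No mitochondrial enzyme changed by 2-fold, and the only one lowered at an FDR under 0.05 was *Hars2*. HC3 raised 8 of 16 and lowered 1 in M[0], and RSM raised 6 and lowered 1. In M[IL-4] HC3 raised 3 and lowered 0, and RSM raised 3 and lowered 1. In each comparison the share lowered was below the 18.5 to 21.5% of all genes that fell. Read against the shares of all genes given above for the cytosolic class (18.9 to 22.6% higher), the 3 of 16 in M[IL-4] are close to the background. Their median log2 fold changes were 0.33, 0.18, 0.20 and 0.07, and with RSM the median was 0.048 in M[0] and 0.021 in M[IL-4] without replicate 1. The counts are small and unstable, since the 8 raised by HC3 in M[0] became 4 without replicate 2 and 5 without replicate 3, the 6 raised by RSM became 3 without replicate 1, and the 3 raised by HC3 in M[IL-4] became 1 without replicate 3. The 1 lowered by RSM in M[0] became 2 without replicate 2, and the 1 lowered by RSM in M[IL-4] became 0 without replicate 1 or 3. With a replicate block within each polarization, 2, 3, 2 and 2 mitochondrial genes fell in the 4 comparisons and 5 rose with RSM in M[IL-4], without a share of all genes under that block to read them against.

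*Nars2*, the mitochondrial asparagine enzyme, was low but rose in each comparison. It had 8.07, 6.58 and 6.78 CPM with Veh, 9.15, 10.2 and 8.47 with HC3 and 10.5, 12.2 and 10.2 with RSM in M[0], and 7.97, 7.32 and 7.06 with Veh, 10.02, 11.01 and 11.4 with HC3 and 11.4, 12.7 and 11.9 with RSM in M[IL-4]. The lowest inhibitor library was above the highest Veh library each time. On the log2 scale the differences were 0.38 (SE 0.121, FDR = 0.0171) and 0.62 (SE 0.120, FDR = 0.000395) in M[0], and 0.54 (SE 0.120, FDR = 0.00147) and 0.68 (SE 0.119, FDR = 0.000135) in M[IL-4]. Without replicate 3 the FDR for HC3 was 0.105 (M[0]) and 0.073 (M[IL-4]). Without replicate 2 it was 0.247 in M[0].

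*Mars2*, which charges methionine for the mitochondrial ribosome from a gene with a single exon, had 8.57, 7.28 and 11.5 CPM with Veh, 16.1, 14.7 and 14.7 with HC3 and 11.7, 12.7 and 12.7 with RSM in M[0]. Its M[IL-4] libraries had 10.5, 12.8 and 11.03 CPM with Veh, 14.5, 13.7 and 18.5 with HC3 and 13.9, 10.9 and 11.6 with RSM, where RSM and Veh overlapped. It rose with HC3 by 0.73 (SE 0.152, FDR = 0.000656) in M[0] and by 0.45 (SE 0.149, FDR = 0.0234) in M[IL-4], the second call being lost without replicate 1 (FDR = 0.111) or replicate 3 (FDR = 0.266). With RSM it rose by 0.44 (SE 0.153, FDR = 0.0272) in M[0], which was lost without replicate 1 (FDR = 0.125) or replicate 2 (FDR = 0.215). *Tars2*, the mitochondrial threonine enzyme, was raised more evenly, from 26.6 ± 1.67 CPM to 37.1 ± 2.02 (HC3) and 34.01 ± 2.04 (RSM) in M[0] and from 29.3 ± 0.361 to 40.96 ± 0.986 and 37.8 ± 2.04 in M[IL-4]. Its calls were kept under every alternative run.

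*Hars2*, the mitochondrial histidine enzyme, which lies head to head with *Hars*, fell. It had 36.2, 32.8 and 34.8 CPM with Veh, 29.1, 25.9 and 24.6 with HC3 and 25.8, 26.5 and 22.9 with RSM in M[0]. In M[IL-4] the values were 31.7, 32.9 and 30.6 with Veh, 25.1, 27.2 and 27.9 with HC3 and 25.98, 29.98 and 22.5 with RSM. All inhibitor libraries were below all Veh libraries in both states. The log2 fold change was -0.39 (SE 0.0967, FDR = 0.00323) and -0.46 (SE 0.0969, FDR = 0.000746) in M[0] and -0.28 (SE 0.0970, FDR = 0.0286) for RSM in M[IL-4], of which the last was lost without replicate 1 (FDR = 0.13) or replicate 3 (FDR = 0.22). For HC3 in M[IL-4] it was -0.25 (SE 0.0971, FDR = 0.0512), and FDR = 0.0135 with a replicate block within each polarization. *Lars2* was lower by 0.16 to 0.19 on the log2 scale in all 4 comparisons without passing (FDR of 0.0723 to 0.16), and passed in each with that block (FDR of 0.00447 to 0.0243). Among the other mitochondrial enzymes, the calls not lost when any 1 replicate was left out were *Fars2* and *Yars2* with HC3 in M[0] (0.46 and 0.59), while *Cars2*, *Iars2*, *Pars2*, *Sars2* and *Vars2* did not pass in any comparison with Veh, with 2 exceptions among the alternatives. *Cars2*, lower with RSM in M[0] (-0.25), passed under that block (FDR = 0.0329) and without replicate 2 (FDR = 0.0127), and *Iars2*, higher with HC3 in M[0] (0.10), passed with scaling by library size only (FDR = 0.0414).

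For 17 combinations of a cytosolic gene and the mitochondrial gene of the same amino acid, the log2 fold changes were subtracted. The signed log2 fold change of the cytosolic gene was above that of the mitochondrial gene in 16 of 17 combinations for HC3 and 16 for RSM in M[0], and in 15 and 14 in M[IL-4], with median differences of 0.65, 0.73, 0.56 and 0.50. The widest difference in M[0] was between *Eprs* and *Pars2*, the mitochondrial proline enzyme (1.86 with HC3 and 1.84 with RSM). *Pars2* had only 6.69, 6.64 and 6.99 CPM with Veh, 5.03, 7.58 and 6.00 with HC3 and 5.82, 5.07 and 5.18 with RSM, and in M[IL-4] 5.71, 5.75 and 5.60 with Veh, 6.62, 6.58 and 5.15 with HC3 and 6.01, 4.58 and 4.20 with RSM. Its changes did not pass (-0.13 and -0.34 in M[0]), although all RSM libraries were below Veh in M[0]. In M[IL-4] the widest difference with HC3 was between *Sars* and *Sars2* (1.34). *Sars2* had 8.63, 7.34 and 8.93 CPM with Veh, 9.26, 9.52 and 9.73 with HC3 and 7.58, 11.2 and 9.96 with RSM in M[0] and 8.72, 9.17 and 9.97 with Veh, 7.58, 8.63 and 9.09 with HC3 and 10.7, 9.47 and 9.10 with RSM in M[IL-4], and the inhibitor libraries overlapped with Veh except for HC3 in M[0] (0.19, FDR = 0.271). For histidine the cytosolic value was above the mitochondrial one in all 4 comparisons, with *Hars2* lower by more than *Hars* moved. The order was the other way round for *Farsa* and *Fars2* in all 4 comparisons (-0.30, -0.42, -0.32 and -0.61). In M[IL-4] it was also the other way round for *Tars* with HC3 (-0.14) and for *Nars* and *Farsb* with RSM (-0.15 and -0.13). *Eprs* and *Fars2* each enter 2 combinations, and the differences were not tested.

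**Figure D4:**
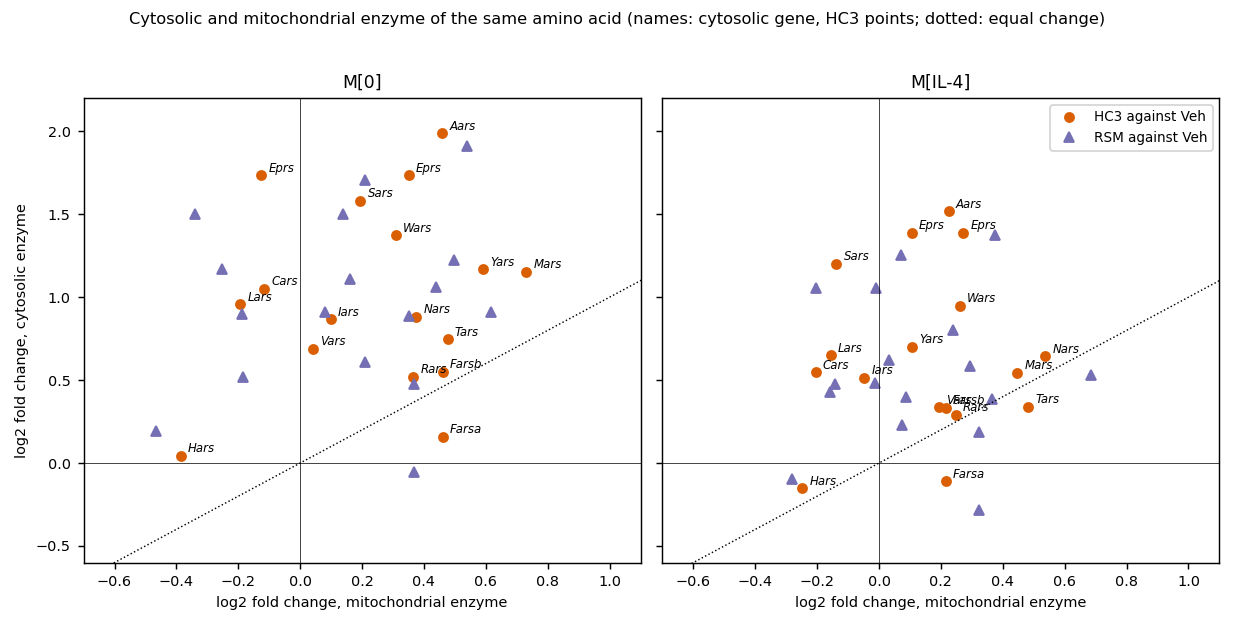
Log2 fold change against Veh of the cytosolic gene (vertical axis) and of the mitochondrial gene of the same amino acid (horizontal axis) for HC3 (circles, named) and RSM (triangles), in M[0] and M[IL-4]; the dotted line marks equal change. Points lie above the line in 16 of 17 combinations for each inhibitor in M[0] and in 15 (HC3) and 14 (RSM) in M[IL-4].

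IL-4 alone also raised cytosolic synthetase transcripts. Between M[IL-4] and M[0] with Veh, 18 of 20 cytosolic and 3 of 3 scaffold genes were higher and none was lower, against 1 of 16 mitochondrial genes (all genes 16.1% higher and 14.9% lower). Without replicate 3 the call of each scaffold gene was lost (FDR = 0.135 for *Aimp1*, 0.229 for *Aimp2* and 0.0896 for *Eef1e1*), as were those of *Aimp2* without replicate 2 (FDR = 0.165) and *Eef1e1* without replicate 1 (FDR = 0.0673). Among cytosolic genes, the call of *Hars* was lost without any 1 of the replicates (FDR = 0.0971 to 0.116). That of *Vars* was lost without replicate 1 (FDR = 0.0985). Medians were 0.48 for cytosolic and 0.14 for mitochondrial genes. The largest change was that of *Rars*, the arginine enzyme of the multisynthetase complex (chromosome 11 from 35808381 to 35834506). It had 83.7, 80.5 and 72.3 CPM in Veh M[0] and 147, 170.2 and 159 in Veh M[IL-4], with no overlap (log2 fold change 1.01 (SE 0.0803, FDR = 1.69e-08)). *Yars* followed, with 68.4, 58.4 and 62.3 CPM in Veh M[IL-4] (0.74 (SE 0.0699, FDR = 1.68e-07)), and *Cars*, with 77.3, 65.1 and 74.1 CPM (0.64 (SE 0.0631, FDR = 2.53e-07)). *Mars* had 79.2, 73.4 and 81.6 CPM in Veh M[IL-4] (0.61), and *Lars* 102, 101 and 102 (0.50). *Qars* and *Dars* did not pass (0.07 and -0.06). Among mitochondrial genes *Wars2*, for tryptophan, rose from 7.35, 8.28 and 7.85 to 11.6, 11.4 and 10.7 CPM (0.52 (SE 0.124, FDR = 0.00336)), a call that was lost without replicate 1 (FDR = 0.0681).

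Under either inhibitor the IL-4 difference was small for most members. With HC3, 3 cytosolic genes and 1 mitochondrial gene were higher in M[IL-4] and none was lower (all genes 7.22% and 7.48%), and with RSM 4 cytosolic genes were higher and none lower (all genes 8.79% and 6.74%). Medians over cytosolic genes were 0.12 and 0.05. In edgeR with a replicate block within each polarization, 13 members were higher with HC3, and with RSM 9 were higher and 1 was lower (*Gars*, -0.15 without the block and FDR = 0.0300 with it). No share of all genes is given for that block, so its counts lack a background. The block also removes the spread between replicates of a state, which is part of the error of a comparison between states. Its FDR values for M[IL-4] against M[0] can therefore be too small, and nothing is concluded from these counts. In the model without a block, only 1 member was higher with either inhibitor without replicate 3. Without replicate 2 only 1 was higher with RSM. *Rars* rose with IL-4 under each pretreatment. With HC3, its M[0] libraries had 122, 117 and 100.01 CPM, and those of M[IL-4] 177, 206 and 199. With RSM, the M[0] libraries had 123, 121 and 117 CPM, and those of M[IL-4] 234, 237 and 245. No library of 1 state overlapped with the other, at log2 fold changes of 0.78 (SE 0.0792, FDR = 9.93e-07) and 0.99 (SE 0.0791, FDR = 2.87e-08). Against Veh, *Rars* rose by 0.52 and 0.61 in M[0], then by 0.29 and 0.59 in M[IL-4], the value for HC3 in M[IL-4] being lost without replicate 3 (FDR = 0.0591). RSM M[IL-4] held its highest level, 238 ± 5.61 CPM.

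The other calls under an inhibitor were smaller. *Yars* and *Lars* rose with IL-4 under HC3. *Yars* had 108, 95.7 and 104 CPM with HC3 and 91.3, 87.3 and 86.1 with RSM in M[IL-4], and *Lars* 156, 163 and 159.9 and 135, 133 and 144. The differences from M[0] with HC3 were 0.27 (SE 0.0670, FDR = 0.0094) for *Yars*, lost without replicate 3 (FDR = 0.217), and 0.19 (SE 0.0527, FDR = 0.0172) for *Lars*, lost without replicate 2 (FDR = 0.132) or replicate 3 (FDR = 0.289). *Wars2* was raised with HC3 from 9.84, 10.04 and 9.21 to 12.7, 13.4 and 14.3 CPM (0.47 (SE 0.121, FDR = 0.0116)), again lost without replicate 1 (FDR = 0.051) or replicate 3 (FDR = 0.201). With RSM, *Wars2* had 11.3, 12.7 and 9.19 CPM in M[0], above Veh (0.50 (SE 0.124, FDR = 0.00328), FDR = 0.0562 without replicate 1), and 11.5, 14.2 and 14.2 in M[IL-4]. *Iars*, *Kars* and *Qars* rose with IL-4 under RSM by 0.26, 0.21 and 0.19, each lost without replicate 3 (FDR = 0.281, 0.221 and 0.264) and without replicate 2 (FDR = 0.0523, 0.0617 and 0.0973); for *Kars* and *Qars* they were also lost without replicate 1 (FDR = 0.107 and 0.0842).

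**Figure D5:**
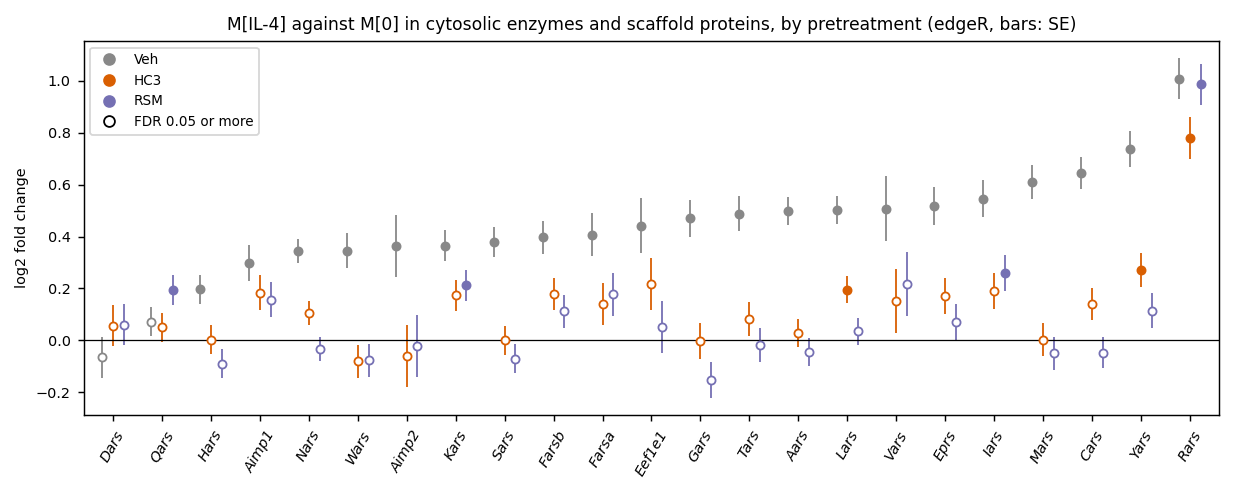
Log2 fold change of M[IL-4] against M[0] (points) with its SE (bars) for the 20 cytosolic and 3 scaffold genes with Veh, HC3 and RSM, ordered by the value with Veh and filled at an FDR under 0.05 (edgeR). Values with Veh reach 1.01 (*Rars*), and most values with HC3 or RSM lie closer to 0 than those with Veh.

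Whether the effect of an inhibitor differed between M[IL-4] and M[0] was tested by the interaction term. It was negative with an FDR under 0.05 for 12 cytosolic genes with HC3 and 12 with RSM, and for no scaffold or mitochondrial gene, where 3.4% and 4.14% of all genes had a negative and 3.08% and 5.05% a positive term that passed. With a replicate block within each polarization, 18 members had a negative term with HC3 and 16 with RSM. The shares of all genes above are without this block and are not a background for these counts. Those gained with HC3 were *Farsa*, *Farsb*, *Rars*, *Vars*, *Aimp2* (FDR = 0.0466) and *Yars2* (FDR = 0.0243), and with RSM *Farsb*, *Iars*, *Vars* and *Eef1e1* (FDR = 0.0238). Without the block, the 12 genes with HC3 included *Iars*, and the 12 with RSM included *Hars* in its place. Their rise over Veh was thus smaller in M[IL-4], where Veh itself was higher. The exception was *Hars* with RSM, which went from 0.19 in M[0] to -0.09 in M[IL-4]. The 3 lowest FDR with HC3 belonged to *Mars* (-0.61 (SE 0.0921, FDR = 0.000475)), *Aars* (-0.47 (SE 0.0768, FDR = 0.000951)) and *Cars* (-0.51 (SE 0.0877, FDR = 0.00159)). With RSM they belonged to *Cars* (-0.69 (SE 0.0876, FDR = 4.11e-05)), *Mars* (-0.66 (SE 0.0922, FDR = 0.000116)) and *Aars* (-0.54 (SE 0.0768, FDR = 0.000131)). In M[IL-4], *Mars* had 119, 108 and 115 CPM with HC3 and 108, 98.6 and 103 with RSM, and *Cars* 107, 107 and 102 and 101, 98.1 and 102. These ranges overlapped with those of M[0] except for *Cars* with HC3, which was higher in M[IL-4]. Both terms share the Veh libraries. Leaving out replicate 3 reduced the number with HC3 to 0 and that with RSM to 4, and leaving out replicate 1 or 2 reduced that with HC3 to 6 and 5.

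A direct comparison asked whether blocking uptake and blocking the kinase left different synthetase levels. In M[0], 2 of 39 members were higher with HC3 than with RSM and none was lower (all genes 6.18% and 7.43%). In M[IL-4], 4 were higher and 1 was lower (all genes 4.97% and 8.03%). *Eprs* was higher with HC3 in both states, by 0.23 (SE 0.0710, FDR = 0.034) in M[0] and 0.34 (SE 0.0710, FDR = 0.00316) in M[IL-4], and these calls were lost without replicate 3 (FDR = 0.373 and 0.125) and, in M[0], without replicate 2 (FDR = 0.0574). *Yars2* was higher with HC3 in M[0], where it had 10.5, 11.6 and 12.7 CPM with Veh, 17.2, 17.4 and 17.8 with HC3 and 13.6, 12.4 and 12.9 with RSM (0.43 (SE 0.119, FDR = 0.0202)). Every HC3 library of *Yars2* was above every RSM library, but the call was lost without any 1 of the replicates (FDR = 0.066 to 0.228). In M[IL-4], *Yars2* had 15.2, 11.3 and 16.01 CPM with Veh, 16.4, 14.9 and 14.6 with HC3 and 15.7, 13.1 and 13.4 with RSM, which overlapped. *Lars*, *Yars* and *Eef1e1* were higher with HC3 in M[IL-4], by 0.22, 0.22 and 0.32, and *Rars* was lower (-0.30 (SE 0.0781, FDR = 0.0155)). All 4 of these calls were lost without replicate 3 (FDR = 0.114, 0.428, 0.38 and 0.132), those of *Yars*, *Eef1e1* and *Rars* also without replicate 1 (FDR = 0.111, 0.122 and 0.0866), and those of *Lars* and *Eef1e1* without replicate 2 (FDR = 0.115 and 0.058).

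For members that did not pass, the interval of the difference between HC3 and RSM limits its size without showing that the inhibitors act alike. For *Aars* the 95% interval of the log2 difference was -0.04 to 0.19 in M[0] and 0.03 to 0.26 in M[IL-4], and for *Sars* it was -0.24 to -0.01 and -0.17 to 0.06. For the low mitochondrial gene *Pars2* it was wider, -0.14 to 0.56 and -0.04 to 0.66. With a replicate block within each polarization, which the correlation of same-numbered libraries warranted for comparisons within a state, 5 members were higher and 3 lower with HC3 in M[0], and 10 higher and 1 lower in M[IL-4]. These counts have no share of all genes under the block beside them. *Gars* (FDR = 0.00395) and *Aars* (FDR = 0.00916) were among those higher with HC3 in M[IL-4] under that block. Without replicate 3 no member passed in either state, and without replicate 2 none in M[0].

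Other genes of tRNA maturation and translation were described beside the members. Their lists were written from general knowledge, with earlier results of these data known. Their counts stand beside the 22.6%, 20.5%, 18.9% and 20.1% of all genes that rose in these comparisons. The shares of all genes that fell were 21.5%, 20.7%, 19.9% and 18.5%. Of 29 tested genes of tRNA processing and export, 13, 12, 10 and 6 rose with HC3 and RSM, in M[0] first and in M[IL-4] second, and 2 fell, the latter with RSM in M[IL-4]. The 6 with RSM in M[IL-4] are close to the share of all genes. *Xpot*, the export receptor of tRNA, rose by 0.93, 1.14, 1.05 and 1.11, and *Mettl1*, a tRNA methyltransferase, by 1.36, 0.91, 0.86 and 0.36. Of 35 cytosolic initiation, elongation and release factors, 30, 25, 20 and 18 rose, at medians of 0.37, 0.38, 0.22 and 0.19, and 1 fell in each M[IL-4] comparison. *Eif3c*, a subunit of the initiation factor that binds the small ribosomal subunit, rose by 0.98, 0.96, 0.74 and 0.78. Of 16 tested mitochondrial translation factors, 6, 4, 3 and 2 rose and 1, 1, 0 and 2 fell, at medians of 0.17, 0.07, 0.05 and -0.01. In M[IL-4] these rises are no more frequent than among all genes. *Lrpprc*, which binds mitochondrial mRNA, rose by 0.55, 0.44, 0.39 and 0.26.

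Genes of the integrated stress response moved with the synthetases. *Atf4* had 153, 156 and 152 CPM with Veh, 525, 545 and 507 with HC3 and 535, 520.2 and 487 with RSM in M[0]. With IL-4 it had 233, 244 and 227 CPM with Veh, 536, 572 and 522 with HC3 and 499, 519.7 and 508 with RSM. As for most cytosolic synthetases, Veh libraries were higher in M[IL-4] than in M[0] (0.61 (SE 0.0548, FDR = 8.52e-08)), while inhibitor libraries reached a similar level in both states (0.05 with HC3 and -0.01 with RSM). *Ddit3*, which encodes the stress factor CHOP, had 14.5, 16.3 and 15.3 CPM with Veh, 148, 165 and 151 with HC3 and 115, 129.9 and 122 with RSM in M[0], and *Trib3*, a target of both, had 2.49, 3.70 and 3.76 with Veh, 297, 319.8 and 329 with HC3 and 281, 309.97 and 303 with RSM. Of 20 genes of this response, 18, 19, 16 and 18 rose in the 4 comparisons with Veh and 0, 1, 2 and 1 fell, and 11 rose with IL-4 in Veh. Of all genes tested, 22.6%, 20.5%, 18.9% and 20.1% rose and 21.5%, 20.7%, 19.9% and 18.5% fell in the same order. With IL-4 in Veh, 16.1% of all genes rose. Whether the synthetase changes depend on *Atf4* was not tested.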

How the data were processed

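RNA of 18 BMDM libraries was analysed. The authors trimmed reads with fastp, mapped them to GRCm38 with STAR, kept reads with a mapping quality of 40, marked duplicates with Picard without removing them, and deposited raw counts per gene over exons from featureCounts; tool versions, annotation release and strand setting are not given in the sources used here, and without strand, reads of overlapping genes on opposite strands cannot be told apart. Of 55385 genes, 14979 had at least 10 counts in at least 2 libraries. One edgeR 4.0.16 quasi-likelihood model (R 4.3.3, TMM scaling, 6 groups) gave log2 fold changes, SE and Benjamini-Hochberg FDR; values in CPM use TMM library sizes. Totals of 17457796 to 19522255 counts limit precision mainly for low genes such as *Pars2*. Gene positions and exon lengths came from GENCODE M21 and promoter windows from RefSeq. The statistics were tested on simulated data.

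The members and gene lists were chosen with earlier results of these data known. Values in every library were given for the members that moved most up or down in each class and inhibitor comparison, the widest combinations of cytosolic and mitochondrial genes, *Gars*, *Kars*, and up to 3 members with the lowest FDR in every other comparison. Deviations of same-numbered libraries from their group means correlated within a polarization (r of 0.110 to 0.372, over 0.1 in 18 of 18 pairs). Across polarizations, 12 of 27 same-numbered pairs were over 0.1 (highest r 0.300), against 10 of 54 pairs with different numbers (highest r 0.198). The numbers thus pair libraries within a polarization, and whether they also pair them across polarizations was not settled. Replicates of a group differed beyond sampling noise (chi-square per gene of 5.79 to 18.2). Alternatives were the replicate block, only the compared groups, DESeq2 1.42.0, its size factors, library size scaling, no count filter and leaving out each replicate. A few items are not reported here.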

Additional observations from a re-analysis of the deposited data

Results flagged for a closer look

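The interaction terms that passed an FDR of 0.05 (edgeR) were singled out because the effect of an inhibitor differed between M[IL-4] and M[0]. Each is the log2 fold change against Veh in M[IL-4] minus that in M[0], and each was negative. With HC3 the terms were -0.47 for *Aars*, -0.51 for *Cars*, -0.35 for *Eprs*, -0.47 for *Gars*, -0.35 for *Iars* and -0.31 for *Lars*. The other 6 were -0.61 for *Mars*, -0.24 for *Nars*, -0.38 for *Sars*, -0.41 for *Tars*, -0.43 for *Wars* and -0.47 for *Yars*. With RSM they were -0.54 for *Aars*, -0.69 for *Cars*, -0.45 for *Eprs*, -0.62 for *Gars*, -0.29 for *Hars* and -0.47 for *Lars*. The remaining terms with RSM were -0.66 for *Mars*, -0.38 for *Nars*, -0.45 for *Sars*, -0.51 for *Tars*, -0.42 for *Wars* and -0.62 for *Yars*. Without replicate 3 the 12 terms with HC3 became 0 and the 12 with RSM became 4, and without replicates 1 and 2 in turn they became 6 and 5 with HC3 and 12 and 9 with RSM. *Iars* did not pass with RSM (-0.29, FDR = 0.0787), but passed with a replicate block over all groups (FDR = 0.0334), with one within each polarization (FDR = 0.00213) and with DESeq2 (FDR = 0.0251). *Hars* did not pass with HC3 (-0.19, FDR = 0.171). *Rars*, the member with the largest rise with IL-4, did not pass with HC3 (-0.23, FDR = 0.271), although FDR = 0.0268 with a replicate block within each polarization.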

How the results depend on the processing

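The summary values of the comparisons, such as counts and medians, kept their sign under the alternatives run. Of their recomputed values 313 kept their side of the threshold and size, 25 rose, 30 fell and 12 moved. For single members 4013 kept their call, 105 gained and 172 lost one. Small differences of single members did change sign, such as that of *Aars* between M[IL-4] and M[0] with HC3 (-0.0186 to 0.0662 on the log2 scale). The causes were not tested, and no share of all genes is given for the alternatives. The replicate block over all groups gave 2 mitochondrial enzymes lower with HC3 and 2 with RSM in M[0], 1 lower with HC3 and 5 higher with RSM in M[IL-4], and 8 members higher with IL-4 under HC3. The replicate block within each polarization gave 2, 3, 2 and 2 mitochondrial enzymes lower with HC3 and RSM in M[0] and then in M[IL-4], 5 higher with RSM in M[IL-4], 13 and 9 members higher with IL-4 under HC3 and RSM and 1 lower under RSM, and, for HC3 against RSM, 5 higher and 3 lower in M[0] and 10 higher in M[IL-4]. For the comparisons of M[IL-4] with M[0], this block leaves the spread between replicates out of the error, so its FDR can be too small there. With only the compared groups, 5 mitochondrial enzymes were higher and 2 lower with HC3 in M[0], 0 lower with RSM in M[IL-4], and 2 members higher with HC3 than with RSM in M[IL-4]. DESeq2 gave 1 mitochondrial enzyme lower with HC3 in M[IL-4], as did its size factors in edgeR, and 8 members higher with IL-4 under HC3 and 7 higher with HC3 than with RSM in M[IL-4]. Without the count filter, 2 mitochondrial enzymes were lower with HC3 in M[0] and 2 members were higher with HC3 than with RSM in M[IL-4]. Scaling by library size only moved the cytosolic medians to 0.92, 0.96, 0.58 and 0.50 and the mitochondrial medians in M[IL-4] to 0.25 and 0.12, with 6 mitochondrial enzymes higher with HC3, 5 higher with RSM and 0 lower with RSM there, 2 and 1 members higher with IL-4 under HC3 and RSM, and 1 (M[0]) and 2 (M[IL-4]) higher with HC3 than with RSM.

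Leaving out 1 replicate at a time gave 4 to 6 mitochondrial enzymes higher with HC3 in M[0] (median 0.23 to 0.33), 3 to 6 higher and 1 to 2 lower with RSM in M[0] (median 0.048 to 0.24), 1 to 3 higher with HC3 in M[IL-4] (median 0.14 to 0.21) and 0 to 1 lower with RSM in M[IL-4] (median 0.021 to 0.11). The cytosolic median with HC3 in M[IL-4] was 0.49 to 0.54. Members higher with IL-4 numbered 1 to 5 under HC3 and 1 to 3 under RSM. Those higher with HC3 than with RSM numbered 0 to 1 in M[0] and 0 to 2 in M[IL-4], with 0 to 1 lower in M[IL-4], and negative interaction terms numbered 0 to 6 with HC3 and 4 to 12 with RSM.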
